A study of Mus musculus with 27 samples.

Results

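RNA was sequenced from mouse T cells to ask how gene expression depends on the mTOR complexes. Described here is 1 comparison of the series: CD4+ T cells lacking Raptor (Raptor KO) against wild-type (WT) CD4+ T cells, both stimulated through the T cell receptor. It uses 6 of 27 libraries, chosen by their titles: 3 of Raptor KO CD4 cells with anti-CD3 and anti-CD28 and 3 of WT CD4 cells with the same stimulus. All genes that passed a filter on low counts were tested, 10493 of 26801 counted. Raptor KO cells came from C57BL/6 mice in which the Cd4-cre transgene Tg(Cd4-cre)1Cwi, active in T cells, deletes a floxed Rptor gene (Rptortm1.1Dmsa). WT cells came from C57BL/6 wild-type mice, so the groups also differ in the presence of Cre. CD4+ cells of pooled lymph node and spleen were enriched with magnetic beads by removal of other cells and cultured for 48 h on plates coated with anti-CD3 and anti-CD28, each at 10 µg/ml. Living cells were then sorted for RNA. Cells of the same genotypes kept for 48 h with the survival cytokine IL-7 at 5 ng/ml, called resting, and stimulated CD8+ cells serve as further comparisons, with 3 libraries in each group. Whether the 3 libraries of a group stem from 3 animals is not stated. By the sex chromosome counts given below, Raptor KO library 1 does not share its animal with Raptor KO libraries 2 and 3. The p-values reflect the spread among these libraries alone, which may otherwise be technical.

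Raptor is the subunit that defines the kinase complex mTORC1 and brings substrates to it. In stimulated T cells mTORC1 is known to drive growth in cell size, protein synthesis, glycolysis and lipid synthesis. It raises the translation of the transcription factor ATF4, which switches on genes for amino acid synthesis, amino acid uptake and tRNA charging. It promotes the processing of the sterol regulatory element binding proteins (SREBPs), which switch on cholesterol and fatty acid genes. It also favours HIF-1 and MYC, which switch on glycolysis. When mTORC1 is low, TFEB and TFE3 enter the nucleus and switch on lysosomal genes.

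The 6 libraries held 11853564 to 13226478 counts. Rn45s, the precursor of ribosomal RNA, made up 82.3% to 87.6% of them. It was left out, which left 1582214 to 2280104 counts per library. Protein-coding genes held 39.5%, 33.4% and 46.5% of those in Raptor KO libraries 1 to 3, against 38.9%, 55.5% and 63.6% in WT libraries 1 to 3. Small nucleolar RNAs held 22.4%, 25.8% and 15.7% in Raptor KO libraries, against 23.1%, 14.8% and 11.0% in WT libraries. Whether this difference in composition takes part in the results was not tested. Raptor KO library 1 stood apart from the other 5 in genes of the sex chromosomes, named here after their values were seen. Xist, expressed from the inactive X chromosome of females, had 2588, 0 and 0 counts in Raptor KO libraries, against 9, 0 and 0 counts in WT libraries. The Y-linked Ddx3y had 0, 30 and 65 counts in Raptor KO libraries, against 48, 64 and 137 counts in WT libraries. Kdm5d, Eif2s3y and Uty were also at 0 in Raptor KO library 1 alone. The libraries numbered 1 of resting Raptor KO CD4 cells and of stimulated Raptor KO CD8 cells showed the same, with 1664 and 1300 Xist counts and 0 Ddx3y counts. By these counts, Raptor KO library 1 held RNA of female cells and the other 5 libraries RNA of male cells. Sex was thus not balanced between the groups, and its part in the results was not tested. Counts of called genes are therefore also given with single libraries left out.

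Levels are given in CPM, read counts scaled to library size after TMM normalisation, per gene and not per length. Changes are given as log2 fold changes of Raptor KO over WT with their standard error. A gene was called at an adjusted p under 0.05 in edgeR's quasi-likelihood test with Benjamini-Hochberg adjustment over the 10493 genes. Every adjusted p printed comes from that test. Rptor had 25.1, 24.1 and 17.0 CPM in Raptor KO libraries, against 30.5, 24.5 and 23.9 CPM in WT libraries (log2 fold change -0.25 ± 0.20, edgeR adjusted p = 0.427), and the groups overlapped. A floxed allele loses some exons and can still give a transcript, and reads were counted over the whole gene, so this count is a weak check of the deletion. Mtor, the kinase, had 37.0, 44.1 and 45.8 CPM in Raptor KO libraries, against 56.4, 49.5 and 58.6 CPM in WT libraries, a difference that missed the threshold (log2 fold change -0.37 ± 0.15, edgeR adjusted p = 0.0723). Rictor, the defining subunit of mTORC2, had 82.6, 64.1 and 52.0 CPM in Raptor KO libraries, against 46.7, 42.8 and 41.8 CPM in WT libraries, with no overlap, and rose (log2 fold change 0.60 ± 0.16, edgeR adjusted p = 0.00614). Cd4 had 187, 229.5 and 217 CPM in Raptor KO libraries, against 181, 174 and 171 CPM in WT libraries (log2 fold change 0.27 ± 0.27, edgeR adjusted p = 0.532), while Cd8a lay at or below 3.24 CPM in all 6 libraries, so the labelled cell type carried its defining marker. Leaving out 1 library ended the call, with the highest edgeR adjusted p given, of Rictor (0.114 without Raptor KO library 1).

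In stimulated CD4 cells 925 genes were higher in Raptor KO, 8.82% of those tested, and 898 were lower, 8.56%. The libraries of the groups did not overlap for 855 of the higher and 851 of the lower genes. Over all genes tested, without regard to the test, 17.1% lay higher and 16.3% lower in Raptor KO with no overlap. The higher genes had a median absolute log2 fold change of 0.97 and the lower genes 0.74, and 439 and 219 of them changed at least 2-fold. Without Raptor KO library 1 the test called 601 higher and 570 lower genes, and without WT library 3 it called 1138 in all, against 1823 with every library. The balance of the directions depends on scaling: with library totals that include Rn45s, the median log2 fold change of all genes moved by -0.50 and 67 higher and 617 lower genes were called, so that 9.80% of calls were higher, against 50.7% with TMM. Median-ratio size factors gave 794 higher and 1054 lower genes, or 43.0% higher. For each gene group below, the count of called members is given with the median log2 fold change of its tested members, to be read beside the median of 0.04 and the shares of 8.82% higher and 8.56% lower over all genes tested. The groups were chosen with earlier results of these data known, so their counts and medians are descriptions and not independent tests of the groups.

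**Figure D1:**
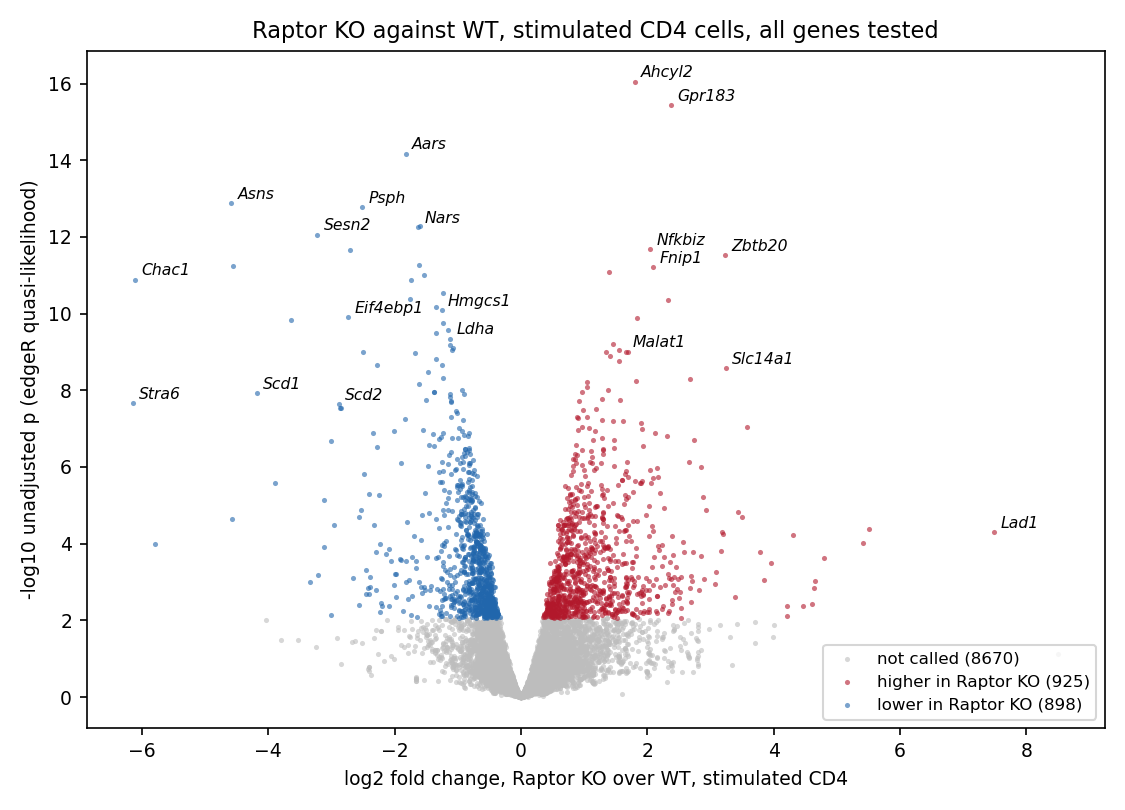
Each point is 1 of 10493 genes tested, with the log2 fold change of Raptor KO over WT in stimulated CD4 cells on the x axis and -log10 of the unadjusted p of edgeR's quasi-likelihood test on the y axis. Red points are the 925 genes called higher and blue points the 898 called lower in Raptor KO. Asns, Chac1 and Stra6 lie far to the left, and Ahcyl2 and Gpr183 at the top right.

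Genes that answer to ATF4 fell the most. Of 22 tested members of the ATF4 list, 14 fell and none rose, with a median log2 fold change of -1.75, and 12 to 14 fell with any 1 library left out. Atf4 itself had 111, 151 and 112 CPM in Raptor KO libraries, against 271, 289 and 315 CPM in WT libraries. Atf4 thus had a log2 fold change of -1.23 ± 0.17 (edgeR adjusted p = 1.06e-06). Asns, which makes asparagine, had 2.85, 3.45 and 0.945 CPM in Raptor KO libraries, against 38.3, 50.8 and 73.5 CPM in WT libraries, a difference of more than an order of magnitude in every pair of libraries (log2 fold change -4.58 ± 0.35, edgeR adjusted p = 3.41e-10). Chac1, which degrades glutathione, had 1 count in the 3 Raptor KO libraries and 127 in the 3 WT libraries, a 91.1-fold lower level in Raptor KO with a 95% counting interval of 16.1 to 3627. Trib3, a pseudokinase that feeds back on ATF4, had 2.28, 0.689 and 0.945 CPM in Raptor KO libraries, against 9.73, 13.8 and 9.63 CPM in WT libraries. Trib3 differed by -3.01 ± 0.49 on the log2 scale (edgeR adjusted p = 1.98e-05). Sesn2, the leucine sensor that restrains mTORC1, had 6.27, 5.51 and 2.36 CPM in Raptor KO libraries, against 52.5, 42.3 and 36.1 CPM in WT libraries. Sesn2 thus had a log2 fold change of -3.22 ± 0.32 (edgeR adjusted p = 1.14e-09). Gpt2, which makes alanine in mitochondria, had 2.28, 3.45 and 1.42 CPM in Raptor KO libraries, against 24.7, 12.5 and 14.9 CPM in WT libraries. Gpt2 differed by -2.85 ± 0.42 on the log2 scale (edgeR adjusted p = 4.10e-06). Nars, which charges asparagine onto its tRNA, had 61.0, 51.0 and 49.6 CPM in Raptor KO libraries, against 147, 174 and 178 CPM in WT libraries. Nars thus had a log2 fold change of -1.63 ± 0.16 (edgeR adjusted p = 8.49e-10). For all of these the Raptor KO libraries lay below the WT libraries without overlap. Cth, the cystathionine lyase that makes cysteine, fell (log2 fold change -3.11 ± 0.62, edgeR adjusted p = 0.00234), as did Pck2, the mitochondrial phosphoenolpyruvate carboxykinase and a known ATF4 target (log2 fold change -2.70 ± 0.27, edgeR adjusted p = 2.26e-09). Ddit3, which encodes the stress factor CHOP, was not among them. It had 7.41, 4.14 and 1.42 CPM in Raptor KO libraries, against 1.30, 3.12 and 4.13 CPM in WT libraries and was not called (log2 fold change 0.43 ± 0.58, edgeR adjusted p = 0.652).

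Because ATF4 is known to bind a short element in promoters, windows of 250 bases before to 50 after each start were taken from RefSeq for GRCm38.p6 and searched on both strands for the C/EBP-ATF response element (CARE), TGATGNAA. The motif was found in 7 of 19 ATF4 list members with a window, 36.8%, and in 5 of 12 cytosolic tRNA synthetases with a window, 41.7%. Among all genes tested that had a window, 2.70% of 7778 held it, among all 27025 genes with a window 4.51%, among lower genes 3.16% and among higher genes 1.39%. A match is a description of letters, not proof of a site. The ATF4 list holds genes chosen for their link to ATF4, so its share is no independent test. The stretches below show the motif in 5 genes that fell, with the CARE in capitals, read 5′ to 3′ on the strand of the gene. TTGCATCA and TTTCATCA are the same motif on the opposite strand. Asns lies at chr6:7693214-7693243 on the minus strand, with the motif starting 23 bases before the RefSeq start. Chac1 lies at chr2:119351004-119351101 on the plus strand, 193 bases before the start. Pycr1, the last enzyme of proline synthesis, lies at chr11:120643799-120643896 on the minus strand, 103 bases before the start. Tars lies at chr15:11399659-11399684 on the minus strand, 15 bases before the start. Gars lies at chr6:55037926-55038000 on the plus strand, 30 bases before the start.
Asns: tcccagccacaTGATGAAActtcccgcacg
Chac1: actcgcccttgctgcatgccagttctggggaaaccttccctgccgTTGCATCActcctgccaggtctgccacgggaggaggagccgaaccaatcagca
Pycr1: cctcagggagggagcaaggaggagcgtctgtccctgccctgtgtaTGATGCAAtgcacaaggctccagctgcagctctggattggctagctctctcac
Tars: caggagtcccgTTGCATCAgctggtt
Gars: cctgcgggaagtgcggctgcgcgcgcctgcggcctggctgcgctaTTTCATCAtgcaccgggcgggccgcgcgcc

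The 5 genes shown are examples that hold the motif and fell, so they are no test of a link between the 2. Pycr1 and Gars are named because their windows are printed. Pycr1 had 1.14, 2.07 and 0.945 CPM in Raptor KO libraries, against 4.54, 7.13 and 3.58 CPM in WT libraries. Pycr1 differed by -1.86 ± 0.64 on the log2 scale (edgeR adjusted p = 0.0374). Gars, which charges glycine, had 65.5, 68.9 and 80.8 CPM in Raptor KO libraries, against 144, 164 and 172 CPM in WT libraries. Gars thus had a log2 fold change of -1.16 ± 0.14 (edgeR adjusted p = 1.00e-07). Aars, which charges alanine, had 41.6, 33.1 and 40.6 CPM in Raptor KO libraries, against 117, 156 and 136 CPM in WT libraries. Aars differed by -1.82 ± 0.15 on the log2 scale (edgeR adjusted p = 2.34e-11). Tars, which charges threonine, had 22.2, 26.2 and 33.5 CPM in Raptor KO libraries, against 61.0, 97.6 and 93.0 CPM in WT libraries. Tars thus had a log2 fold change of -1.62 ± 0.17 (edgeR adjusted p = 4.62e-09). None of the values of one group reached into the other. Of the 20 cytosolic tRNA synthetases tested, 18 fell and none rose (median -0.82), and 15 to 19 fell with any 1 library left out. Yars for tyrosine (-1.60 ± 0.16), Cars for cysteine (-1.61 ± 0.22) and the bifunctional Eprs for glutamate and proline (-0.81 ± 0.14) were among them. Dars for aspartate was lower without overlap but missed the threshold, with 56.4, 52.4 and 59.5 CPM in Raptor KO libraries, against 65.5, 78.0 and 78.7 CPM in WT libraries. Dars differed by -0.40 ± 0.16 on the log2 scale (edgeR adjusted p = 0.0765). The 17 mitochondrial tRNA synthetases, which do the same work for the organelle, held no called gene and had a median of 0.04, as for all genes (below 0 with totals that include Rn45s). edgeR called 0 of them, DESeq2 0 and limma-voom 1, and 0 had an unadjusted p under 0.05, with Aars2 at -0.14 ± 0.30 and Cars2 at -0.49 ± 0.25. With 1 library left out, the call was lost, at the highest edgeR adjusted p, for Pycr1 (0.158 without WT library 2, also without Raptor KO library 1 or 2 or 3).

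Serine and one-carbon enzymes and amino acid carriers moved with the ATF4 genes. Of 15 serine and one-carbon genes, 7 fell and none rose (median -0.52), and 6 to 8 fell with any 1 library left out. Psph, which takes the phosphate from phosphoserine, had 6.84, 7.58 and 7.08 CPM in Raptor KO libraries, against 35.7, 44.6 and 41.6 CPM in WT libraries. Psph thus had a log2 fold change of -2.51 ± 0.23 (edgeR adjusted p = 3.54e-10). Phgdh and Psat1, the 2 enzymes before it, fell as well (-1.56 ± 0.22 and -1.34 ± 0.15). The mitochondrial folate enzyme Aldh1l2 had 0 counts in the 3 Raptor KO libraries and 25 in the 3 WT libraries, at least 5.98-fold lower when Raptor KO is set to a floor of 3 counts over the group. Shmt1, the cytosolic serine hydroxymethyltransferase, had 51.8, 48.3 and 61.9 CPM in Raptor KO libraries, against 60.3, 68.6 and 70.2 CPM in WT libraries and was not called (log2 fold change -0.30 ± 0.18, edgeR adjusted p = 0.278). Of 17 amino acid transporters 8 fell and none rose (median -0.70), and 7 to 9 fell with any 1 library left out. Slc7a5, the large neutral amino acid carrier that supplies leucine to activated T cells, had 71.8, 75.1 and 73.7 CPM in Raptor KO libraries, against 257, 300.3 and 327 CPM in WT libraries. Slc7a5 differed by -2.00 ± 0.26 on the log2 scale (edgeR adjusted p = 1.26e-05). Its partner chain Slc3a2 had 64.9, 71.7 and 67.5 CPM in Raptor KO libraries, against 101, 110.1 and 119 CPM in WT libraries. Slc3a2 thus had a log2 fold change of -0.70 ± 0.14 (edgeR adjusted p = 5.42e-04). The glutamine carrier Slc1a5 differed less (-0.39 ± 0.14, edgeR adjusted p = 0.0401), and the serine and alanine carrier Slc1a4 more (-2.49 ± 0.44, edgeR adjusted p = 9.02e-05). Slc7a3, a carrier of cationic amino acids, had 3 counts in Raptor KO and 110 in WT, a 26.3-fold lower level in Raptor KO (95% counting interval 8.77 to 129.5). Slc6a9, a glycine carrier, had 2 counts in Raptor KO and 48 in WT, 17.2-fold lower (4.51 to 146). Slc7a1, another cationic amino acid carrier, had 201, 189.6 and 212 CPM in Raptor KO libraries, against 200.5, 224 and 251 CPM in WT libraries and was not called (log2 fold change -0.17 ± 0.15, edgeR adjusted p = 0.477). Calls that depended on 1 library, with the highest edgeR adjusted p, were Slc1a5 (0.136 without WT library 3, also without Raptor KO library 1 or 2 or 3 or WT library 1).

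**Figure D2:**
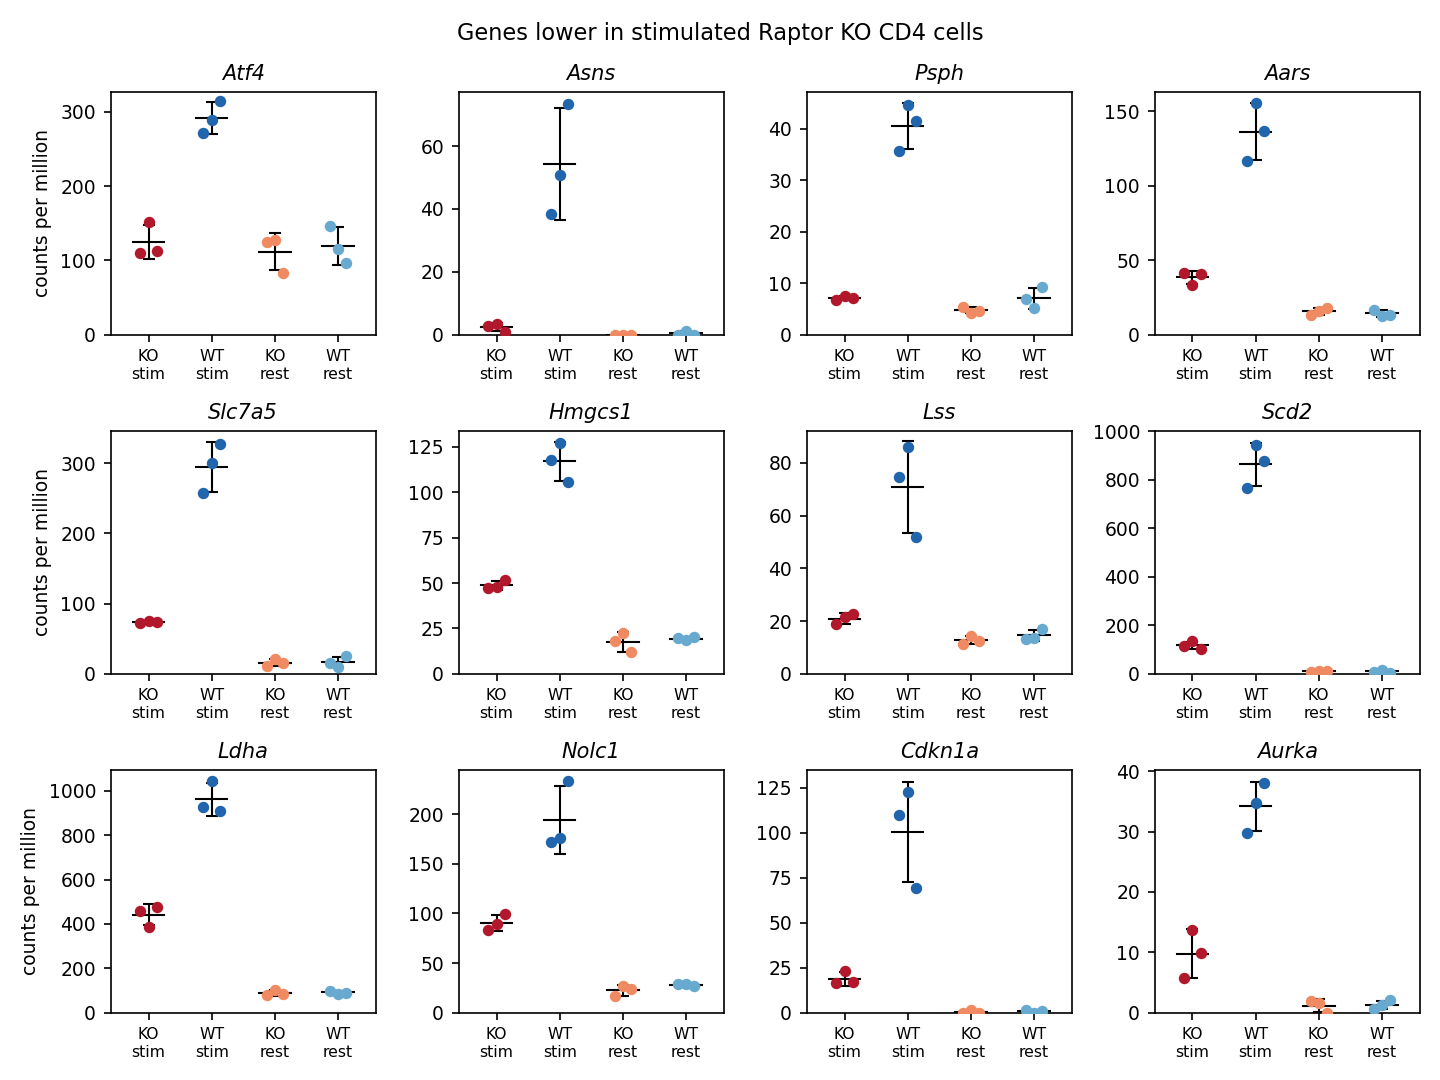
CPM in each library for 12 genes lower in stimulated Raptor KO CD4 cells, with points for libraries of stimulated Raptor KO, stimulated WT, resting Raptor KO and resting WT cells and bars for mean ± SD (n = 3). For every gene shown, the stimulated Raptor KO libraries lie below the stimulated WT libraries. Scd2 reached 945 CPM in a stimulated WT library, against at most 134 CPM in stimulated Raptor KO libraries.

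Cholesterol synthesis fell along most of its length. Of its 24 genes, all tested, 18 fell and none rose (median -1.22), and 16 to 19 fell with any 1 library left out. Acat2, which starts the pathway, had 7.98, 8.27 and 14.6 CPM in Raptor KO libraries, against 29.8, 28.5 and 29.2 CPM in WT libraries. Acat2 differed by -1.45 ± 0.24 on the log2 scale (edgeR adjusted p = 2.42e-05). Hmgcs1, the HMG-CoA synthase, had 47.3, 47.6 and 51.5 CPM in Raptor KO libraries, against 118, 127 and 106 CPM in WT libraries. Hmgcs1 thus had a log2 fold change of -1.26 ± 0.15 (edgeR adjusted p = 3.65e-08). Values of the groups lay apart for these and for the later enzymes. Mvd had 3.42, 4.14 and 6.14 CPM in Raptor KO libraries, against 15.6, 17.8 and 12.7 CPM in WT libraries, and its log2 fold change was -1.69 ± 0.38. Lss, which closes the sterol ring, had 18.8, 21.4 and 22.7 CPM in Raptor KO libraries, against 74.6, 86.0 and 51.7 CPM in WT libraries. Lss differed by -1.73 ± 0.19 on the log2 scale (edgeR adjusted p = 7.96e-09). Msmo1 and Dhcr7, which act on the closed ring, fell by similar amounts (-1.75 ± 0.20 and -1.49 ± 0.22). Srebf2, which encodes the SREBP that drives these genes, fell less, with 163, 188 and 164 CPM in Raptor KO libraries, against 234, 255 and 230.1 CPM in WT libraries. Srebf2 thus had a log2 fold change of -0.48 ± 0.14 (edgeR adjusted p = 0.0145). Among 15 genes of cholesterol uptake, export and sensing, 5 fell and 2 rose (median -0.37), and 3 to 6 fell with any 1 library left out (3 without Raptor KO library 3). The sterol sensor Insig1 fell (-0.95 ± 0.19), whereas Scap, the escort of SREBP, had a log2 fold change of -0.02 ± 0.19 and was not called. The 2 that rose were Npc2, which moves cholesterol out of lysosomes (0.69 ± 0.15), and the oxysterol receptor Nr1h2 (0.82 ± 0.18), and the cholesterol exporter Abcg1 fell (-1.30 ± 0.45). Leaving out 1 library ended the call, with the highest edgeR adjusted p given, of Srebf2 (0.0674 without Raptor KO library 1, also without Raptor KO library 3 or WT library 2) and Abcg1 (0.382 without WT library 3, also without Raptor KO library 1 or 2 or 3).

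The Hmgcs1 promoter is shown because it held the only match, among 19 cholesterol synthesis genes with a window, to the sterol regulatory element written as TCACNCCAC. Of tested genes with a window, 1.36% hold it. It lies at chr13:119690169-119690267 of GRCm38.p6 on the plus strand, the element in capitals starting 137 bases before the RefSeq start. Other spellings of the element were not searched.
Hmgcs1: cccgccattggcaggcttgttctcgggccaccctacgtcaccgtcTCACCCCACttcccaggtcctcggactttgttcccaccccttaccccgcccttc

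Fatty acid genes fell with those of sterols. Of 17 tested, 14 fell and none rose (median -0.85), and 11 to 14 fell with any 1 library left out. Scd2, a stearoyl-CoA desaturase and the member of the group with the highest CPM, had 115, 134 and 102 CPM in Raptor KO libraries, against 766, 945 and 878 CPM in WT libraries. Scd2 differed by -2.89 ± 0.31 on the log2 scale (edgeR adjusted p = 3.34e-06). Scd1, its relative, had 2.28, 6.20 and 1.89 CPM in Raptor KO libraries, against 39.6, 75.3 and 61.1 CPM in WT libraries (log2 fold change -4.18 ± 0.46, edgeR adjusted p = 2.12e-06), and reads that fit both desaturase genes could be split between them by the authors' counting. Fads2, which makes polyunsaturated fatty acids, had 2.28, 2.76 and 1.42 CPM in Raptor KO libraries, against 24.0, 33.4 and 22.3 CPM in WT libraries. Fads2 thus had a log2 fold change of -3.63 ± 0.40 (edgeR adjusted p = 5.78e-08). Fasn, the fatty acid synthase, had 257, 263 and 243 CPM in Raptor KO libraries, against 603, 542 and 597 CPM in WT libraries. Fasn differed by -1.19 ± 0.21 on the log2 scale (edgeR adjusted p = 3.28e-04). Acly, which supplies acetyl-CoA (-0.85 ± 0.16), Acaca, the acetyl-CoA carboxylase (-0.70 ± 0.17), and Srebf1, which encodes the SREBP that drives this group (-0.93 ± 0.17), fell by less than 1 on the log2 scale. Mid1ip1, an activator of acetyl-CoA carboxylase, fell by 2.35 (1.39e-05 as edgeR adjusted p).

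In glycolysis, 13 of 21 tested genes fell and none rose (median -0.88), and 13 fell with any 1 library left out. The glucose carrier Slc2a1 had 49.0, 42.7 and 33.1 CPM in Raptor KO libraries, against 68.1, 94.0 and 66.9 CPM in WT libraries. Slc2a1 thus had a log2 fold change of -0.88 ± 0.17 (edgeR adjusted p = 2.93e-04). Hk2, the inducible hexokinase, had 87.7, 68.2 and 78.9 CPM in Raptor KO libraries, against 182, 166 and 138 CPM in WT libraries. Hk2 differed by -1.04 ± 0.18 on the log2 scale (edgeR adjusted p = 7.56e-05). The constitutive Hk1 had 81.5, 76.5 and 67.5 CPM in Raptor KO libraries, against 74.6, 102 and 70.7 CPM in WT libraries and was not called. Ldha, which makes lactate, had 460.3, 387 and 476 CPM in Raptor KO libraries, against 928, 1045 and 911 CPM in WT libraries. Ldha thus had a log2 fold change of -1.12 ± 0.14 (edgeR adjusted p = 1.57e-07). Every Raptor KO library lay below every WT library in each called gene named here. Gapdh (-1.09 ± 0.14), Eno1 (-1.13 ± 0.14), Pgam1 (-1.15 ± 0.23) and Pkm (-0.81 ± 0.14) fell by similar amounts, and the lactate exporter Slc16a3 by more (-1.803 ± 0.34). Gpi1, the second enzyme of the pathway, had 132, 123 and 135 CPM in Raptor KO libraries, against 112, 134 and 133 CPM in WT libraries and was not called (log2 fold change 0.04 ± 0.14, edgeR adjusted p = 0.88). Gapdh, Ldha, Eno1 and Pgam1 have processed pseudogenes, so their counts are uncertain where the authors' counting could split or drop shared reads. Of 13 hypoxia response genes, 6 fell and 1 rose (median -0.62), and 2 to 6 fell with any 1 library left out (2 without Raptor KO library 3 or WT library 2). Hif1a had 149, 157 and 123 CPM in Raptor KO libraries, against 219, 300.3 and 140.3 CPM in WT libraries, an overlap of the groups at the lowest WT library, and was called (log2 fold change -0.62 ± 0.19, edgeR adjusted p = 0.0226). Vegfa, the endothelial growth factor, had 4.56, 2.07 and 1.42 CPM in Raptor KO libraries, against 26.6, 16.9 and 17.1 CPM in WT libraries. Vegfa differed by -2.87 ± 0.42 on the log2 scale (edgeR adjusted p = 4.10e-06). Ak4, a mitochondrial adenylate kinase known as a HIF-1 target, had 5.70, 5.51 and 5.20 CPM in Raptor KO libraries, against 35.0, 38.8 and 21.2 CPM in WT libraries. Ak4 thus had a log2 fold change of -2.50 ± 0.31 (edgeR adjusted p = 2.70e-07). The prolyl hydroxylases Egln3 (-1.62 ± 0.42) and P4ha1 (-0.83 ± 0.20) fell, Kdm3a, a histone demethylase, rose (0.53 ± 0.18), and Bnip3l was not called (-0.14 ± 0.24). With 1 library left out, the call was lost, at the highest edgeR adjusted p, for Hif1a (0.239 without WT library 2, also without Raptor KO library 1 or 3), Egln3 (0.0602 without Raptor KO library 3, also without WT library 2) and Kdm3a (0.3 without Raptor KO library 1, also without WT library 1 or 2 or 3).

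Called genes of the pentose phosphate pathway and of mitochondria were lower in Raptor KO. Of 8 pentose phosphate genes 5 fell (median -0.60), and 2 to 5 fell with any 1 library left out (2 without Raptor KO library 1, 3 without Raptor KO library 2 or WT library 2). Pgd, which makes NADPH, had 52.4, 58.6 and 68.5 CPM in Raptor KO libraries, against 99.3, 119.9 and 121 CPM in WT libraries. Pgd differed by -0.92 ± 0.16 on the log2 scale (edgeR adjusted p = 7.01e-05). Tkt, the transketolase, had 134, 136 and 144 CPM in Raptor KO libraries, against 217, 214 and 223 CPM in WT libraries. Tkt thus had a log2 fold change of -0.66 ± 0.15 (edgeR adjusted p = 0.00131). Of 26 TCA cycle and glutamine genes 10 fell (median -0.36), and 6 to 10 fell with any 1 library left out (6 without Raptor KO library 1 or WT library 3). Cs, the citrate synthase, had 125, 116 and 129.9 CPM in Raptor KO libraries, against 182, 197 and 195 CPM in WT libraries. Cs differed by -0.63 ± 0.12 on the log2 scale (edgeR adjusted p = 3.24e-04). Mdh2, the malate dehydrogenase (-0.69 ± 0.15), Dld, a subunit of several dehydrogenase complexes (-0.91 ± 0.19), and Got2, the mitochondrial aspartate aminotransferase (-0.82 ± 0.16), fell as well. Of 70 nuclear genes of the respiratory chain 14 fell, or 20.0%, against 8.56% of all genes tested. Their median was -0.29, or -0.12 without Raptor KO library 1. With any 1 library left out 2 to 19 fell (2 without WT library 3, 3 without Raptor KO library 1, 5 without Raptor KO library 2, 7 without WT library 2). Cycs for cytochrome c (-0.95 ± 0.25), the complex I subunit Ndufa9 (-0.77 ± 0.21) and the ATP synthase subunit Atp5g1 (-0.95 ± 0.20) were among the 14. Of 76 mitochondrial ribosome genes 9 fell (median -0.30), or 11.8%, near the share of 8.56% over all genes tested. With any 1 library left out 2 to 11 fell (2 without Raptor KO library 1, 5 without WT library 3). Mrpl46 was at -1.17 ± 0.33 and Mrps23 at -0.95 ± 0.18. None of these 4 groups held a gene that rose. The 8 tested mRNAs of the mitochondrial genome had a median of 0.46 and 0 calls by edgeR, DESeq2 0 and limma-voom 0, and 1 had an unadjusted p under 0.05, with mt-Nd1 at 1144, 1310.3 and 1502 CPM in Raptor KO libraries, against 1297, 700.5 and 951 CPM in WT libraries and the groups overlapping. In the glutathione, thioredoxin and NRF2 list 9 of 24 fell (median -0.36), and 2 to 9 fell with any 1 library left out (2 without Raptor KO library 1, 3 without WT library 3, 4 without Raptor KO library 2 or WT library 2), including Sod2, the mitochondrial superoxide dismutase (-0.74 ± 0.18), and Prdx3, a mitochondrial peroxidase (-0.67 ± 0.17). Calls that depended on 1 library, with the highest edgeR adjusted p, were Cycs (0.0626 without Raptor KO library 1, also without WT library 3), Ndufa9 (0.117 without WT library 3), Mrpl46 (0.0768 without Raptor KO library 1) and Sod2 (0.0569 without Raptor KO library 1).

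**Figure D3:**
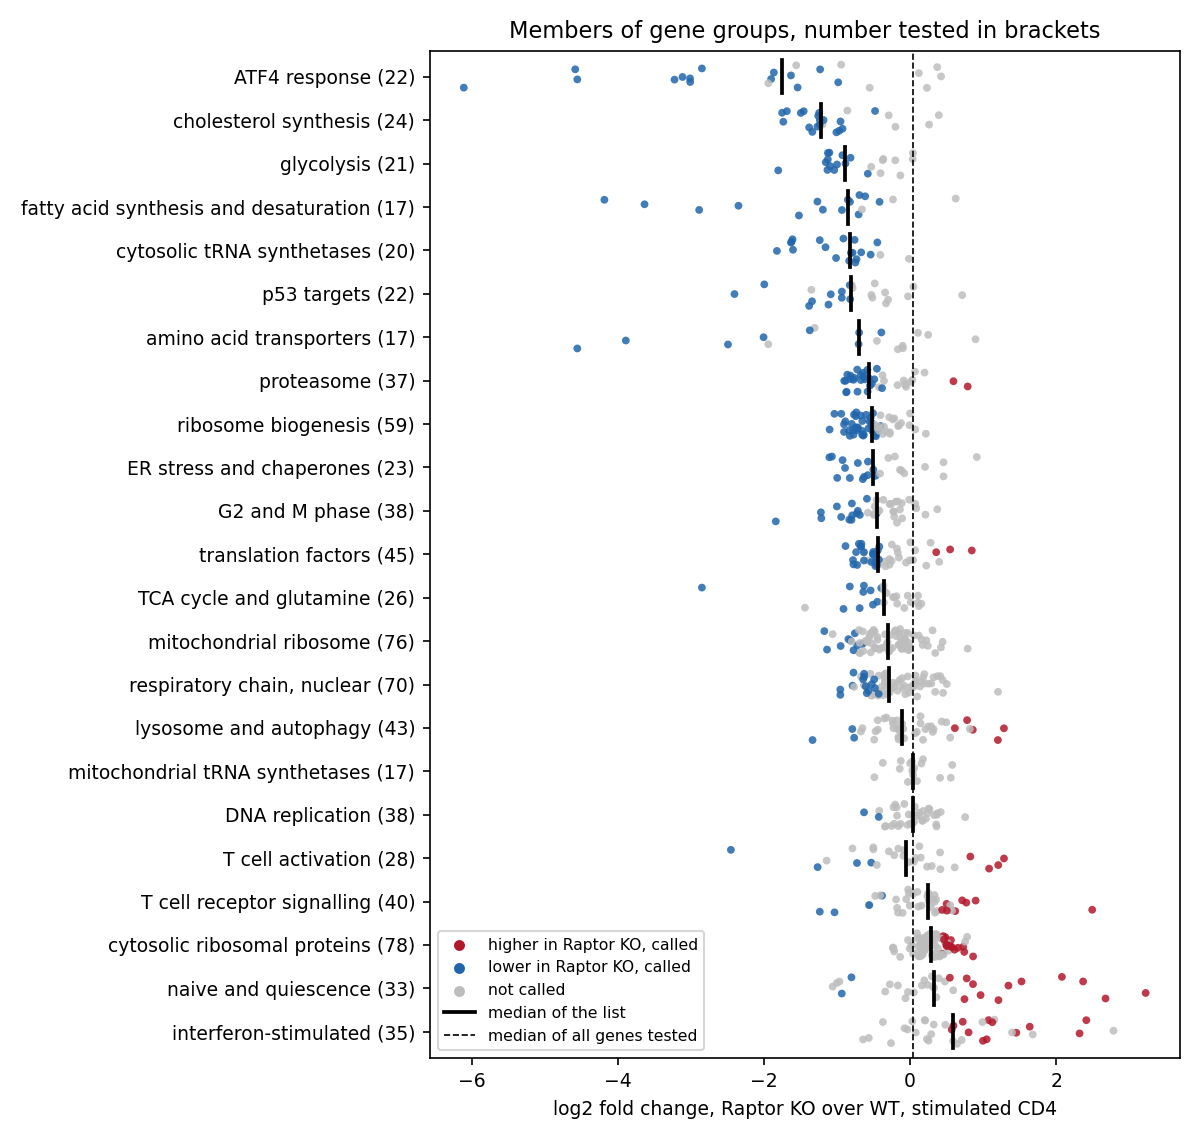
Each point is a tested gene of 1 of 23 groups, with its log2 fold change of Raptor KO over WT in stimulated CD4 cells on the x axis. Red and blue points are called higher and lower, black bars are group medians, and the dashed line is the median of all genes tested, 0.04. Medians run from -1.75 for the ATF4 response to 0.59 for interferon-stimulated genes. With library totals that include Rn45s, the medians of mitochondrial tRNA synthetases, DNA replication, T cell receptor signalling, cytosolic ribosomal proteins and naive and quiescence genes lie below 0.

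With TMM scaling, the machinery that makes ribosomes and the ribosomes' own proteins moved in opposite directions. Of 59 ribosome biogenesis genes 38 fell and none rose (median -0.53), and 16 to 38 fell with any 1 library left out (16 without WT library 3, 21 without Raptor KO library 2, 25 without Raptor KO library 1). Nolc1, a nucleolar chaperone, had 83.2, 89.6 and 99.2 CPM in Raptor KO libraries, against 172, 176 and 234 CPM in WT libraries. Nolc1 thus had a log2 fold change of -1.10 ± 0.17 (edgeR adjusted p = 6.73e-06). Ncl, nucleolin, had 676, 599.7 and 794 CPM in Raptor KO libraries, against 1058, 1052 and 1553 CPM in WT libraries. Ncl differed by -0.82 ± 0.17 on the log2 scale (edgeR adjusted p = 6.47e-04). Npm1, nucleophosmin, had 554, 565 and 784 CPM in Raptor KO libraries, against 846, 1037 and 1377 CPM in WT libraries. Npm1 thus had a log2 fold change of -0.78 ± 0.19 (edgeR adjusted p = 0.00438). Bms1 and Bop1, which process the small and the large subunit, fell (-1.03 ± 0.18 and -0.94 ± 0.19), and fibrillarin Fbl was lower without being called (log2 fold change -0.40 ± 0.16, edgeR adjusted p = 0.0831). Of 78 cytosolic ribosomal protein genes, 17 rose and none fell (median 0.29), and 4 to 17 rose with any 1 library left out (4 without Raptor KO library 3, 6 without WT library 1), while with totals that include Rn45s their median was -0.23, which is 0.23 above that of all genes, and none was called. Rps15a had 314, 312 and 438 CPM in Raptor KO libraries, against 200.5, 189.8 and 195 CPM in WT libraries. Rps15a differed by 0.86 ± 0.15 on the log2 scale (edgeR adjusted p = 4.53e-05). Rps7 had 441, 412 and 499.7 CPM in Raptor KO libraries, against 266, 273 and 278 CPM in WT libraries. Rps7 thus had a log2 fold change of 0.73 ± 0.14 (edgeR adjusted p = 2.62e-04). Rps14 had 559, 621 and 716 CPM in Raptor KO libraries, against 358, 417 and 428 CPM in WT libraries. Rps14 differed by 0.66 ± 0.15 on the log2 scale (edgeR adjusted p = 0.00159). Rpl3 and Rpsa rose by less (0.47 ± 0.14 and 0.45 ± 0.15, below 0 with totals that include Rn45s), and Rpl4 and Rpl6 were not called (0.24 ± 0.15 and 0.23 ± 0.13). In resting CD4 cells the ribosomal protein genes had a median of 0.315 with none called, against -0.0051 over all genes tested. No difference between their stimulated and resting effects was called. The ribosome biogenesis genes had a resting median of 0.0279, and 8 differences toward lower were called. Ribosomal protein genes have many pseudogenes, so their counts are uncertain in the same way as those of Gapdh. Such mRNAs begin with a terminal oligopyrimidine tract through which mTORC1 is known to control their translation, and the counts measure their abundance and not their translation. Leaving out 1 library ended the call, with the highest edgeR adjusted p given, of Npm1 (0.0592 without WT library 3), Rpl3 (0.106 without Raptor KO library 3, also without WT library 2 or 3) and Rpsa (0.178 without Raptor KO library 3, also without Raptor KO library 2 or WT library 1 or 3).

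Translation factors moved in both directions, most of them lower. Of 45 tested, 22 fell and 3 rose (median -0.43), and 8 to 22 fell with any 1 library left out (8 without WT library 3, 9 without Raptor KO library 2, 11 without Raptor KO library 1). The 3 that rose included Eef1a1, an elongation factor whose mRNA carries such a tract, with 3121, 2799.9 and 3349 CPM in Raptor KO libraries, against 1563, 1822 and 1773 CPM in WT libraries (log2 fold change 0.85 ± 0.18, edgeR adjusted p = 0.00106), and Tpt1, with 404, 392 and 472 CPM in Raptor KO libraries, against 254, 298 and 313 CPM in WT libraries. Tpt1 thus had a log2 fold change of 0.55 ± 0.15 (edgeR adjusted p = 0.0102). Eef2, the other main elongation factor, was higher in each Raptor KO library but not called, with 2994, 2783 and 3066 CPM in Raptor KO libraries, against 2183, 2205 and 2313 CPM in WT libraries. Eef2 differed by 0.40 ± 0.17 on the log2 scale (edgeR adjusted p = 0.106). Initiation factors were among those that fell. The scaffold Eif4g1 had 301, 261 and 309 CPM in Raptor KO libraries, against 454, 483 and 551 CPM in WT libraries (log2 fold change -0.77 ± 0.14, edgeR adjusted p = 8.60e-05). The eIF2 subunit Eif2s2 had a log2 fold change of -0.88 ± 0.18, Eif5a of -0.78 ± 0.20 and the helicase Eif4a1 of -0.46 ± 0.14. Outside the list of 45, Eif4ebp1, the mTORC1 substrate that restrains cap-dependent initiation and an ATF4 target, fell as well. It had 1.71, 5.51 and 5.67 CPM in Raptor KO libraries, against 21.4, 35.6 and 28.6 CPM in WT libraries. Eif4ebp1 thus had a log2 fold change of -2.73 ± 0.32 (edgeR adjusted p = 5.39e-08). Protein disposal and folding fell as well. Of 37 proteasome genes 24 fell and 2 rose (median -0.56), and 11 to 25 fell with any 1 library left out (11 without WT library 3, 15 without Raptor KO library 1 or Raptor KO library 2). Psmd2, of the regulatory cap, had 98.5, 95.8 and 106 CPM in Raptor KO libraries, against 176, 183 and 194 CPM in WT libraries (log2 fold change -0.88 ± 0.15, edgeR adjusted p = 2.94e-05), and the catalytic subunit Psmb5 fell by 0.90 (edgeR adjusted p = 0.00671). The 2 that rose, Psmb9 (0.59 ± 0.17) and Psme2 (0.79 ± 0.17), belong to the interferon-inducible immunoproteasome. Of 23 endoplasmic reticulum genes 13 fell and none rose (median -0.50), and 10 to 12 fell with any 1 library left out. The chaperone Hsp90b1 had 124, 103 and 95.9 CPM in Raptor KO libraries, against 199, 229.9 and 264 CPM in WT libraries (log2 fold change -1.10 ± 0.16, edgeR adjusted p = 3.13e-06), Hyou1 had 68.9, 68.2 and 77.5 CPM in Raptor KO libraries, against 151, 151 and 149 CPM in WT libraries (log2 fold change -1.07 ± 0.13, edgeR adjusted p = 2.47e-07), and Hspa5, or BiP, differed less (-0.47 ± 0.14), while Xbp1 was not called (0.46 ± 0.18). With 1 library left out, the call was lost, at the highest edgeR adjusted p, for Tpt1 (0.0783 without WT library 1, also without Raptor KO library 3), Eif4a1 (0.127 without WT library 3, also without Raptor KO library 1 or 2), Psmb5 (0.113 without WT library 3, also without Raptor KO library 3), Psmb9 (0.0795 without Raptor KO library 2, also without WT library 2) and Hspa5 (0.0585 without Raptor KO library 2, also without Raptor KO library 1 or WT library 3).

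Genes around mTORC1 itself were called about as often as all genes tested, of which 8.82% rose and 8.56% fell. Of 32 tested, 3 rose and 3 fell (median -0.10), and 1 to 4 rose with any 1 library left out (1 without Raptor KO library 1 or Raptor KO library 3). Rragd, a Rag GTPase that brings mTORC1 to lysosomes and a known TFEB target, had 9.68, 11.7 and 17.0 CPM in Raptor KO libraries, against 3.89, 5.79 and 4.13 CPM in WT libraries. Rragd differed by 1.49 ± 0.38 on the log2 scale (edgeR adjusted p = 0.00425). Rragb, another Rag GTPase, rose too (1.69 ± 0.54, edgeR adjusted p = 0.0258). Ddit4, or REDD1, an inhibitor of mTORC1, had 28.5, 25.5 and 10.4 CPM in Raptor KO libraries, against 89.5, 97.6 and 51.2 CPM in WT libraries. Ddit4 thus had a log2 fold change of -1.90 ± 0.42 (edgeR adjusted p = 0.00402). Outside the list of 32, Fnip1, a folliculin partner that acts on Rag GTPases, rose as well. It had 133, 116 and 128 CPM in Raptor KO libraries, against 27.2, 27.2 and 33.0 CPM in WT libraries. Fnip1 differed by 2.09 ± 0.20 on the log2 scale (edgeR adjusted p = 4.62e-09). Mlst8 and Akt1s1, 2 further subunits of mTORC1, were not called (-0.33 ± 0.33 and -0.39 ± 0.31). Of 43 lysosome and autophagy genes 5 rose and 3 fell (median -0.11). The called share was 18.6%, near the 17.4% over all genes tested. With any 1 library left out 3 to 4 rose (3 without Raptor KO library 1 or Raptor KO library 3 or WT library 3). Mcoln1, the lysosomal calcium channel, had 12.5, 17.2 and 15.6 CPM in Raptor KO libraries, against 7.78, 5.79 and 6.33 CPM in WT libraries (log2 fold change 1.20 ± 0.31, edgeR adjusted p = 0.00436), and Hexa, a lysosomal hydrolase, rose (0.86 ± 0.30). Ctss, a cathepsin that myeloid cells also express at high level, had 31.3, 33.1 and 39.2 CPM in Raptor KO libraries, against 11.7, 12.0 and 17.3 CPM in WT libraries. Ctss thus had a log2 fold change of 1.29 ± 0.24 (edgeR adjusted p = 1.81e-04). Atp6v1a of the proton pump (-0.79 ± 0.16) and the autophagy gene Gabarapl1 (-1.33 ± 0.39) fell. Tfeb and Tfe3 were not called (-0.15 ± 0.52 and -0.32 ± 0.26). The E-box CACGTG, the core of the motif TFEB binds, stood in the promoter window of 13 of 34 lysosome genes, 38.2%, against 12.5% of tested genes with a window, 13.0% of higher and 15.0% of lower genes. In the PI3K and Akt list 4 of 21 rose and none fell (median 0.14), and 2 to 4 rose with any 1 library left out (2 without Raptor KO library 1 or Raptor KO library 2 or WT library 3). The median of this list was -0.05 without Raptor KO library 1. With totals that include Rn45s it was -0.39, 0.07 above that of all genes. Pik3r1, the regulatory subunit, had 87.7, 80.0 and 66.1 CPM in Raptor KO libraries, against 46.1, 44.1 and 41.8 CPM in WT libraries. Pik3r1 differed by 0.83 ± 0.15 on the log2 scale (edgeR adjusted p = 7.83e-05). Inpp4b, a lipid phosphatase, had 259, 242 and 242 CPM in Raptor KO libraries, against 129.7, 140.4 and 133 CPM in WT libraries. Inpp4b thus had a log2 fold change of 0.88 ± 0.15 (edgeR adjusted p = 3.82e-05). Calls that depended on 1 library, with the highest edgeR adjusted p, were Rragd (0.0568 without Raptor KO library 3), Rragb (0.105 without Raptor KO library 1, also without Raptor KO library 3 or WT library 1 or 2), Hexa (0.224 without WT library 3, also without Raptor KO library 1 or 2 or 3 or WT library 1) and Gabarapl1 (0.115 without Raptor KO library 2, also without WT library 3).

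Called cell cycle genes lay mostly in G2 and M phase. Of 38 DNA replication genes 2 fell and none rose, with a median of 0.045. Mcm2 had 146, 150.3 and 139 CPM in Raptor KO libraries, against 165, 160.0 and 161 CPM in WT libraries (log2 fold change -0.16 ± 0.15, edgeR adjusted p = 0.492), and Mcm5 and Mcm4 overlapped between groups. Of 38 G2 and M phase genes 14 fell and none rose (median -0.45), and 9 to 14 fell with any 1 library left out (9 without Raptor KO library 1). Aurka, a mitotic kinase, had 5.70, 13.8 and 9.92 CPM in Raptor KO libraries, against 29.8, 34.8 and 37.98 CPM in WT libraries. Aurka differed by -1.84 ± 0.28 on the log2 scale (edgeR adjusted p = 7.25e-06). Plk1, another, had 18.8, 27.6 and 14.6 CPM in Raptor KO libraries, against 37.0, 46.3 and 53.1 CPM in WT libraries. Plk1 thus had a log2 fold change of -1.22 ± 0.23 (edgeR adjusted p = 1.87e-04). Cdc20, which turns on the anaphase complex, had 23.4, 22.1 and 30.2 CPM in Raptor KO libraries, against 42.8, 52.1 and 56.4 CPM in WT libraries. Cdc20 fell without overlap of the groups (edgeR adjusted p = 6.89e-04). Cdk1 itself had 55.8, 57.2 and 64.2 CPM in Raptor KO libraries, against 49.95, 69.1 and 70.2 CPM in WT libraries and was not called. Of 23 nucleotide synthesis genes 8 fell and none rose (median -0.43), and 4 to 8 fell with any 1 library left out (4 without Raptor KO library 1 or Raptor KO library 2, 5 without WT library 2 or WT library 3), among them Cad, which starts pyrimidine synthesis, with 145, 139 and 191 CPM in Raptor KO libraries, against 267, 265 and 306 CPM in WT libraries. Cad differed by -0.82 ± 0.14 on the log2 scale (edgeR adjusted p = 3.04e-05). Among G1 regulators Cdkn1a, the p21 inhibitor and a p53 target, had 16.5, 23.4 and 17.0 CPM in Raptor KO libraries, against 109.6, 123 and 69.1 CPM in WT libraries (log2 fold change -2.40 ± 0.38, edgeR adjusted p = 2.27e-04), while the D cyclins Ccnd2 and Ccnd3 were not called (0.14 ± 0.16 and -0.53 ± 0.20). Of 22 p53 targets 10 fell and none rose (median -0.81), and 7 to 10 fell with any 1 library left out. Zmat3 had 34.7, 37.9 and 31.2 CPM in Raptor KO libraries, against 114, 95.8 and 64.1 CPM in WT libraries (log2 fold change -1.38 ± 0.19, edgeR adjusted p = 2.02e-06) and Ccng1 had 57.5, 52.4 and 62.3 CPM in Raptor KO libraries, against 146, 161 and 132 CPM in WT libraries. Ccng1 thus had a log2 fold change of -1.34 ± 0.16 (edgeR adjusted p = 1.16e-07). Trp53 (-0.30 ± 0.16) and Mdm2 (-0.34 ± 0.15) were not called. The death inhibitor Bcl2 had 107, 107 and 111 CPM in Raptor KO libraries, against 49.95, 59.3 and 32.7 CPM in WT libraries (log2 fold change 1.21 ± 0.40, edgeR adjusted p = 0.0468), and it was the only one of 14 BCL2 family members tested that rose. Leaving out 1 library ended the call, with the highest edgeR adjusted p given, of Bcl2 (0.196 without WT library 3, also without any other of the 6).

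Activation genes moved in both directions. Of 28 activation genes 4 rose and 4 fell (median -0.05), and 1 to 3 fell with any 1 library left out (1 without Raptor KO library 2, 2 without Raptor KO library 1 or WT library 2). The IL-2 receptor chain Il2ra had 650.0, 661 and 617 CPM in Raptor KO libraries, against 596, 891 and 466 CPM in WT libraries. Irf4, a factor induced by antigen receptor signals, had 619.8, 631 and 567 CPM in Raptor KO libraries, against 557, 631 and 454 CPM in WT libraries. Myc had 230.1, 247 and 297 CPM in Raptor KO libraries, against 224, 200.1 and 233 CPM in WT libraries. The groups overlapped and none of the 3 was called (-0.02 ± 0.28, 0.15 ± 0.43 and 0.23 ± 0.27). Cd69, an early activation marker that holds cells in lymphoid tissue, had 213, 183 and 225 CPM in Raptor KO libraries, against 120.0, 72.2 and 102 CPM in WT libraries. Cd69 differed by 1.08 ± 0.20 on the log2 scale (edgeR adjusted p = 4.65e-04). The nuclear receptor Nr4a3 had 474, 414 and 438 CPM in Raptor KO libraries, against 186, 129.7 and 257 CPM in WT libraries. Nr4a3 thus had a log2 fold change of 1.21 ± 0.36 (edgeR adjusted p = 0.0248). The transferrin receptor Tfrc, which takes up iron, had 448, 351 and 468 CPM in Raptor KO libraries, against 665, 690.2 and 739 CPM in WT libraries. Tfrc differed by -0.73 ± 0.22 on the log2 scale (edgeR adjusted p = 0.0274). Il2, the T cell growth factor, had 17.1, 16.5 and 60.9 CPM in Raptor KO libraries, against 129.7, 65.1 and 256 CPM in WT libraries (log2 fold change -2.21 ± 0.66, edgeR adjusted p = 0.0269), and the libraries of each group differed several-fold among themselves. Lta, lymphotoxin alpha, fell (-0.90 ± 0.21), and these were the 2 of 21 cytokine genes called, with Ifng, Tnf and Il4 at 0.52 ± 0.67, 0.17 ± 0.29 and 0.10 ± 0.54 and overlapping groups. Mxd1, a repressor that competes with MYC for MAX, had 37.0, 65.5 and 42.5 CPM in Raptor KO libraries, against 12.3, 15.2 and 7.43 CPM in WT libraries. Mxd1 thus had a log2 fold change of 2.10 ± 0.34 (edgeR adjusted p = 1.07e-04). With 1 library left out, the call was lost, at the highest edgeR adjusted p, for Nr4a3 (0.116 without WT library 2, also without Raptor KO library 1 or 2 or WT library 1), Tfrc (0.118 without Raptor KO library 2, also without Raptor KO library 1 or WT library 2 or 3) and Il2 (0.181 without WT library 3, also without Raptor KO library 1 or 2).

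Among genes of naive and quiescent T cells more rose than fell with TMM scaling. Of 33 tested, 12 rose and 2 fell (median 0.33), and 9 to 12 rose with any 1 library left out, and with totals that include Rn45s the median was -0.16, 0.30 above that of all genes, with 3 higher and 4 lower. Gpr183, an oxysterol receptor that guides lymphocytes, had 112, 145 and 100.1 CPM in Raptor KO libraries, against 25.3, 25.0 and 19.5 CPM in WT libraries. Gpr183 differed by 2.37 ± 0.18 on the log2 scale (edgeR adjusted p = 1.95e-12). Zbtb20, a transcriptional repressor, had 20.5, 19.3 and 15.1 CPM in Raptor KO libraries, against 1.30, 2.23 and 1.93 CPM in WT libraries. Zbtb20 thus had a log2 fold change of 3.23 ± 0.33 (edgeR adjusted p = 2.83e-09). Ms4a4b, a membrane protein of resting T cells, had 26.2, 40.0 and 55.3 CPM in Raptor KO libraries, against 8.43, 3.56 and 7.16 CPM in WT libraries. Ms4a4b differed by 2.68 ± 0.30 on the log2 scale (edgeR adjusted p = 1.10e-06). Klf2, which maintains quiescence and lymph node homing, had 6.27, 13.1 and 5.20 CPM in Raptor KO libraries, against 3.89, 2.23 and 0.550 CPM in WT libraries. Klf2 thus had a log2 fold change of 2.08 ± 0.50 (edgeR adjusted p = 0.00564). The 3 Raptor KO libraries lay above the 3 WT libraries in each. These levels stayed far below those of resting cells for Klf2, at 220.0 ± 38.8 CPM in resting Raptor KO cells and 203 ± 20.3 CPM in resting WT cells (mean ± SD, n = 3 each). Zbtb20 averaged 110.5 ± 15.8 CPM in resting Raptor KO cells and 115 ± 13.3 CPM in resting WT cells. Gpr183 averaged 86.9 ± 5.82 CPM in resting Raptor KO cells and 90.6 ± 22.4 CPM in resting WT cells. S1pr1 and Ccr7, which direct exit from and entry to lymph nodes, rose with overlapping groups (1.53 ± 0.52 and 0.55 ± 0.16, the second at -0.0402 with totals that include Rn45s). Il7r, the IL-7 receptor chain, was not called (-0.17 ± 0.52). Tcf7, which encodes TCF-1, fell, with 80.3, 83.4 and 101 CPM in Raptor KO libraries, against 146, 156 and 159.9 CPM in WT libraries. Tcf7 differed by -0.80 ± 0.13 on the log2 scale (edgeR adjusted p = 3.71e-05). Calls that depended on 1 library, with the highest edgeR adjusted p, were Klf2 (0.0546 without WT library 3), S1pr1 (0.245 without Raptor KO library 1, also without Raptor KO library 2 or WT library 2 or 3) and Ccr7 (0.11 without Raptor KO library 1, also without Raptor KO library 2 or WT library 1 or 2).

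Receptors and signalling genes moved in both directions, more of them up with TMM scaling. In the list of T cell receptor signalling 8 of 40 rose and 4 fell (median 0.25), and 4 to 7 rose with any 1 library left out (4 without WT library 3, 5 without Raptor KO library 3), and with totals that include Rn45s its median was -0.28, 0.18 above that of all genes. Cblb, a ubiquitin ligase that restrains signalling, had 366, 389 and 334 CPM in Raptor KO libraries, against 177, 222 and 185 CPM in WT libraries. Cblb thus had a log2 fold change of 0.90 ± 0.14 (edgeR adjusted p = 1.24e-05). Txk, a Tec kinase, had 15.4, 8.96 and 12.8 CPM in Raptor KO libraries, against 2.59, 2.67 and 1.65 CPM in WT libraries. Txk differed by 2.49 ± 0.63 on the log2 scale (edgeR adjusted p = 0.00964). The scavenger receptors Cd5 and Cd6, which dampen signalling, fell. Cd5 had 92.9, 103 and 120.0 CPM in Raptor KO libraries, against 248, 213 and 189 CPM in WT libraries (log2 fold change -1.03 ± 0.15, edgeR adjusted p = 4.99e-06) and Cd6 had 82.0, 96.5 and 85.02 CPM in Raptor KO libraries, against 216, 201 and 202 CPM in WT libraries. Cd6 thus had a log2 fold change of -1.23 ± 0.15 (edgeR adjusted p = 6.85e-08). Cd3e, Cd3d and Cd28 were not called (0.24 ± 0.14, -0.03 ± 0.15 and -0.10 ± 0.19). Of 25 costimulatory and inhibitory receptors 7 rose and 2 fell (median 0.28, or -0.25 with totals that include Rn45s, 0.21 above that of all genes), and 3 to 6 rose with any 1 library left out (3 without WT library 2, 4 without Raptor KO library 1 or Raptor KO library 3). The inhibitory receptor Lag3 had 80.9, 61.3 and 70.4 CPM in Raptor KO libraries, against 25.9, 42.3 and 31.1 CPM in WT libraries. Lag3 differed by 1.09 ± 0.25 on the log2 scale (edgeR adjusted p = 0.00302). Ctla4 had 33.6, 31.0 and 27.9 CPM in Raptor KO libraries, against 78.5, 83.8 and 56.7 CPM in WT libraries. Ctla4 thus had a log2 fold change of -1.23 ± 0.28 (edgeR adjusted p = 0.00429). Of 30 genes of cytokine receptors and STAT feedback 7 rose and 1 fell (median 0.23, or -0.26 with totals that include Rn45s, 0.20 above that of all genes), and 4 to 7 rose with any 1 library left out (4 without Raptor KO library 2 or WT library 3). Socs2, a feedback inhibitor of STAT5, had 21.6, 26.2 and 32.6 CPM in Raptor KO libraries, against 5.84, 8.91 and 9.36 CPM in WT libraries (log2 fold change 1.69 ± 0.36, edgeR adjusted p = 8.72e-04), Socs1 rose (1.07 ± 0.27), and Il21r fell (-0.71 ± 0.16). Of 26 T helper regulators 3 rose and 3 fell. Gata3, the factor of the Th2 lineage, had 204, 287 and 168 CPM in Raptor KO libraries, against 121, 143 and 79.5 CPM in WT libraries (log2 fold change 0.95 ± 0.28, edgeR adjusted p = 0.0251) and Tox rose (1.65 ± 0.30), the aryl hydrocarbon receptor Ahr fell (-1.82 ± 0.45), and Tbx21 was not called (-0.14 ± 0.21). Of 12 regulatory T cell genes 3 rose and 1 fell (median 0.66), with Ikzf2 at 1.29 ± 0.25 and Lrrc32 at 1.74 ± 0.38, while Foxp3, the defining factor, had 14.8, 8.96 and 3.78 CPM in Raptor KO libraries, against 6.49, 5.35 and 8.26 CPM in WT libraries and was not called. Of 17 chemokine and chemokine receptor genes 2 rose and 1 fell, and none was called without Raptor KO library 1 or without Raptor KO library 2. Leaving out 1 library ended the call, with the highest edgeR adjusted p given, of Txk (0.0718 without WT library 3), Socs1 (0.0593 without Raptor KO library 2, also without WT library 3), Gata3 (0.133 without WT library 3, also without Raptor KO library 2) and Ahr (0.0554 without WT library 2).

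Interferon-stimulated genes had the highest median of the 23 groups plotted. Of 35 tested, 12 rose and none fell (median 0.59), and 7 to 14 rose with any 1 library left out (7 without WT library 3), and with totals that include Rn45s the median was 0.07, 0.53 above that of all genes, with 1 called. Irf9, a subunit of the factor ISGF3, had 35.3, 37.9 and 32.1 CPM in Raptor KO libraries, against 14.9, 19.6 and 17.3 CPM in WT libraries. Irf9 differed by 0.999 ± 0.24 on the log2 scale (edgeR adjusted p = 0.00322). Stat2, another subunit, was not called (0.33 ± 0.26). Zbp1, a sensor of nucleic acids, had 18.2, 20.0 and 14.2 CPM in Raptor KO libraries, against 5.19, 8.02 and 3.85 CPM in WT libraries. Zbp1 thus had a log2 fold change of 1.64 ± 0.36 (edgeR adjusted p = 0.00113). The RNA sensor Ddx58, or RIG-I, had 10.8, 14.5 and 7.56 CPM in Raptor KO libraries, against 5.19, 4.90 and 2.48 CPM in WT libraries. Ddx58 differed by 1.45 ± 0.36 on the log2 scale (edgeR adjusted p = 0.00318). The Raptor KO libraries lay above the WT libraries in all called genes named here. Ifi203 was low in both groups, at most 8.27 CPM (log2 fold change 2.41 ± 0.66, edgeR adjusted p = 0.0127), and Xaf1 had 12 counts in Raptor KO and 3 in WT, 5.58-fold higher with a 95% counting interval of 1.5 to 30.8. Ifi209, of the Ifi20x cluster in which close paralogs share reads, had 9 counts in Raptor KO and 0 in WT, at least 4.18-fold higher with WT at a floor of 3 counts over the group. Irf7 was not called (1.68 ± 0.71). With 1 library left out, the call was lost, at the highest edgeR adjusted p, for Xaf1 (0.183 without WT library 3, also without Raptor KO library 1 or 2 or WT library 1 or 2), Ddx58 (0.0721 without WT library 3) and Ifi203 (0.0712 without WT library 3, also without Raptor KO library 2 or WT library 2).

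Outside these groups, single genes stood out on the higher side. Ahcyl2, the gene with the smallest p, had 191, 183 and 180.0 CPM in Raptor KO libraries, against 49.3, 50.8 and 57.8 CPM in WT libraries. Ahcyl2 thus had a log2 fold change of 1.799 ± 0.13 (edgeR adjusted p = 9.28e-13). Nfkbiz, an atypical IκB that acts in the nucleus, had 59.8, 59.3 and 44.9 CPM in Raptor KO libraries, against 11.7, 13.8 and 13.5 CPM in WT libraries. Nfkbiz differed by 2.04 ± 0.21 on the log2 scale (edgeR adjusted p = 2.26e-09). Etv3, an ETS repressor, had 84.9, 82.7 and 55.3 CPM in Raptor KO libraries, against 30.5, 17.8 and 16.2 CPM in WT libraries. Etv3 thus had a log2 fold change of 1.84 ± 0.21 (edgeR adjusted p = 5.42e-08). Zfp281, a zinc finger factor, had 137, 129.6 and 87.9 CPM in Raptor KO libraries, against 40.9, 48.6 and 44.3 CPM in WT libraries. Zfp281 differed by 1.39 ± 0.15 on the log2 scale (edgeR adjusted p = 5.84e-09). Slc14a1, a urea transporter, had 13.7, 8.27 and 13.2 CPM in Raptor KO libraries, against 0.649, 0.891 and 1.65 CPM in WT libraries. Slc14a1 thus had a log2 fold change of 3.25 ± 0.43 (edgeR adjusted p = 6.15e-07). Of 20 DNA methylation and Polycomb genes 1 rose and 1 fell. Lad1, which had the largest called fold change, had 83.2, 6.89 and 15.1 CPM in Raptor KO libraries, against 0, 0 and 0.275 CPM in WT libraries, so that Raptor KO library 1 held most of it, and its summed counts were 188 in Raptor KO and 1 in WT, 262-fold higher with a 95% counting interval of 46.5 to 10404. Fitted with the compared groups alone, Lad1 was not called (edgeR adjusted p = 0.0895). On the lower side Stra6, a retinol transporter, had 1 count in Raptor KO and 138 in WT, 99.0-fold lower with a 95% counting interval of 17.5 to 3939, and the Notch ligand Jag2 (-2.53 ± 0.51) and the phosphatase Ptpn5 (-3.11 ± 0.60) fell. Of the genes annotated as noncoding, more rose than fell with TMM. Of 224 tested genes of the class TEC, sequences still to be checked experimentally, 71 rose and none fell (median 1.16, or 0.69 with totals that include Rn45s). Of 147 lincRNAs 19 rose and 1 fell (median 0.53, or 0.01 with totals that include Rn45s). Of 125 antisense genes 21 rose and 2 fell (median 0.62, or 0.17 on that scale), while 787 rose and 891 fell of 9451 protein-coding genes (median 0.00, or -0.50 on that scale). Malat1, a nuclear lincRNA, had 1459, 1260.0 and 1132 CPM in Raptor KO libraries, against 506, 336 and 376 CPM in WT libraries. Malat1 differed by 1.66 ± 0.21 on the log2 scale (edgeR adjusted p = 2.70e-07). Of 117 small nucleolar RNAs 1 rose, or 0.85%, and none fell, against 8.82% of all genes tested that rose. Their median was 0.75, or 0.37 with totals that include Rn45s. Snord17, the 1 that rose, had 12121, 21023 and 11228 CPM in Raptor KO libraries, against 9996, 3929 and 3427 CPM in WT libraries. Snord17 thus had a log2 fold change of 1.35 ± 0.42 (edgeR adjusted p = 0.0223). Beside these stand the protein-coding shares given above, lower in Raptor KO libraries 2 and 3 than in WT libraries 2 and 3 but alike in the libraries numbered 1. Their part in these counts was not tested, and without a stated strand setting antisense genes cannot be told apart from the genes they overlap. Calls that depended on 1 library, with the highest edgeR adjusted p, were Snord17 (0.14 without Raptor KO library 2, also without WT library 2 or 3).

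**Figure D4:**
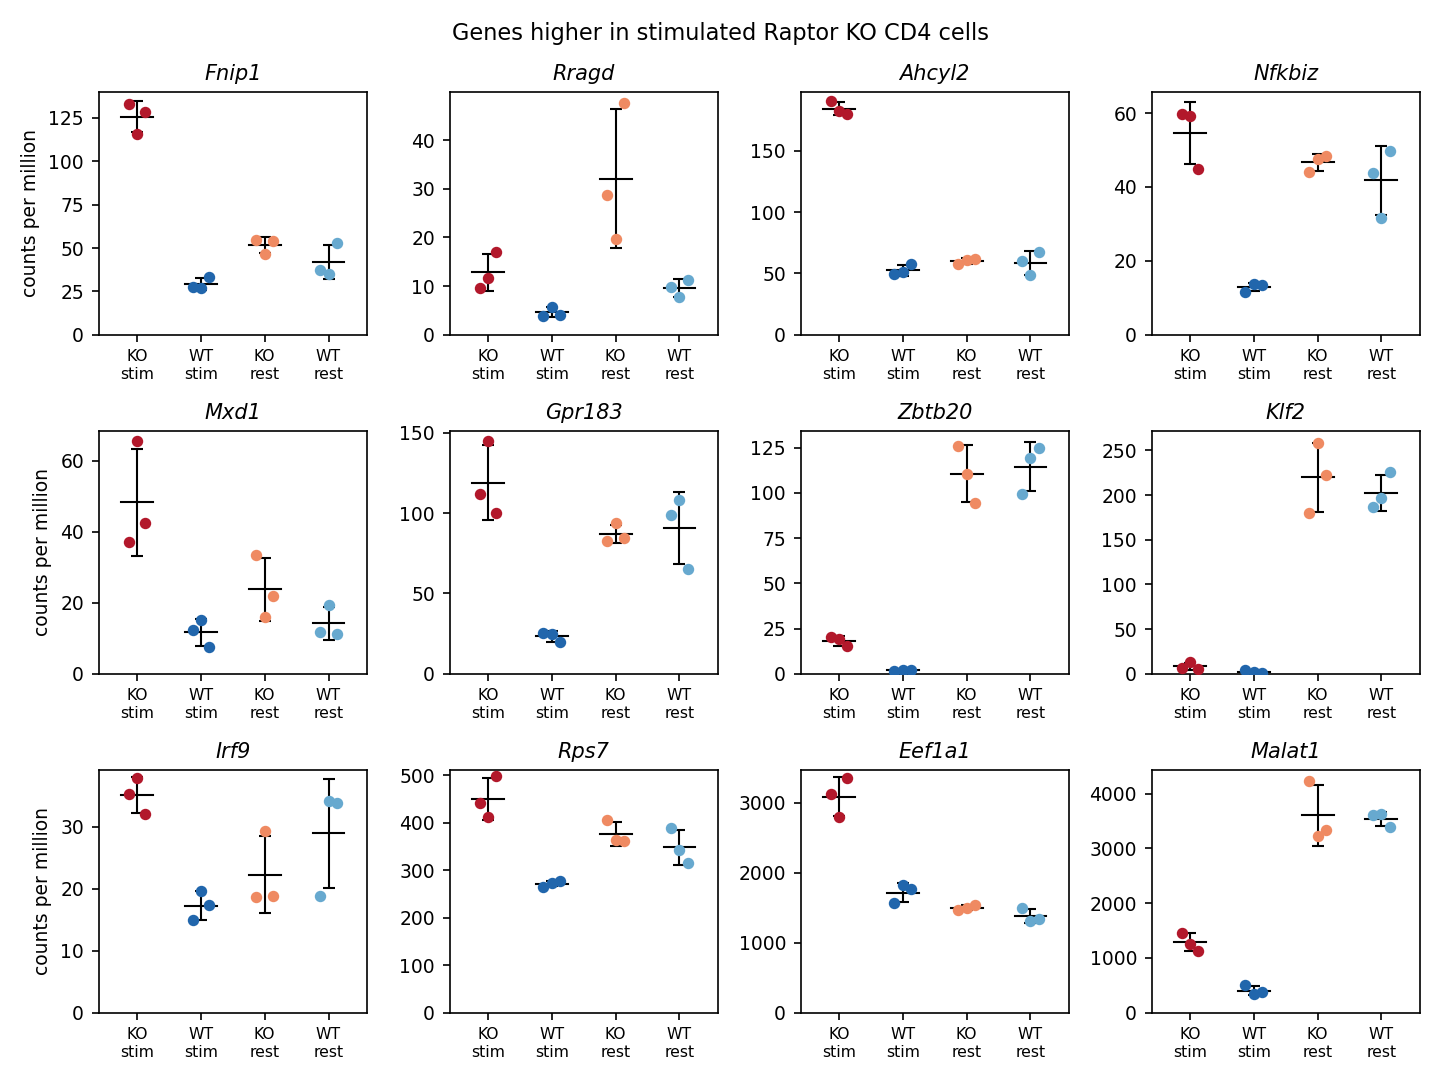
CPM in each library for 12 genes higher in stimulated Raptor KO CD4 cells, with points for libraries of stimulated Raptor KO, stimulated WT, resting Raptor KO and resting WT cells and bars for mean ± SD (n = 3). The stimulated Raptor KO libraries lie above the stimulated WT libraries in every panel. Klf2 and Zbtb20 stay below 25 CPM in all stimulated libraries and lie above 90 CPM in all resting ones. As a family, cytosolic ribosomal proteins (here Rps7) have a median below 0 with library totals that include Rn45s.

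Stimulated CD8 cells give the same genotypes in other libraries. Whether same-numbered CD4 and CD8 libraries come from the same animals is not stated. As given above, both Raptor KO libraries numbered 1 held Xist and no Ddx3y counts. Across genes, deviations from the group mean in Raptor KO CD4 and CD8 libraries correlated at r = 0.259, -0.0469 and 0.416 for numbers 1, 2 and 3, so the 2 comparisons may not be independent. There 661 genes were higher in Raptor KO (6.3% of those tested) and 569 lower (5.42%). Of the higher genes 319 were called in both subsets, 34.5% of the CD4 list and 48.3% of the CD8 list, and of the lower genes 324, 36.1% and 56.9%. The metabolic groups fell in both: in CD8 cells 17 of 22 ATF4 genes, 15 of 20 cytosolic tRNA synthetases, 19 of 24 cholesterol genes and 15 of 21 glycolysis genes fell. A difference between the 2 effects was called for 35 genes, 0.334% of those tested, and for no member of those 4 lists. With 1 library left out the difference was called for 17 to 45 genes (17 without Raptor KO CD8 library 2, 18 without Raptor KO CD4 library 2 or WT CD8 library 2, 22 without Raptor KO CD4 library 1 or WT CD8 library 1), or 2 with totals that include Rn45s. Fewer calls in CD8 cells among translation factors (3 higher and 2 lower), ribosome biogenesis genes (0 and 8) and interferon-stimulated genes (2 and 2) go with a called difference for 1 of these genes, Trim30a, so most of those differences in count were not shown by the test of the difference. Ahcyl2 showed the clearest difference: its log2 fold change in CD8 cells was 0.32 ± 0.14, and the CD4 effect exceeded the CD8 effect by 1.48 ± 0.19, edgeR adjusted p = 1.15e-05. Trim30a, an interferon-induced regulator named after its values were seen, rose in CD4 cells (1.05 ± 0.22) and fell in CD8 cells (-0.68 ± 0.19), a difference of 1.73 ± 0.29, edgeR adjusted p = 0.00197. Epsti1, also interferon-induced, did the same (1.34 ± 0.42 and -1.45 ± 0.33, difference 2.79 ± 0.54, edgeR adjusted p = 0.00723), as did Ypel3 (1.44 ± 0.51 and -1.44 ± 0.46, difference 2.89 ± 0.68, edgeR adjusted p = 0.0415). Chst11, a chondroitin sulfotransferase, fell in CD4 cells (-1.27 ± 0.35) and rose in CD8 cells (0.67 ± 0.21, difference -1.94 ± 0.41, edgeR adjusted p = 0.0167). Fnip1 rose in both subsets, by 2.09 ± 0.20 and 0.89 ± 0.20, and the difference was called (1.20 ± 0.28, edgeR adjusted p = 0.0482). Cd6 fell in CD4 cells and had a log2 fold change of -0.38 ± 0.15 in CD8 cells (-0.86 ± 0.21, edgeR adjusted p = 0.0482). Tnfsf10, or TRAIL, was not called in CD4 cells (0.76 ± 0.34) and rose in CD8 cells (3.31 ± 0.29, difference -2.55 ± 0.46, edgeR adjusted p = 0.00486), and so did Egr2 (0.05 ± 0.19 and 1.46 ± 0.23, difference -1.40 ± 0.30, edgeR adjusted p = 0.0167). Zbtb7b, the factor that fixes the CD4 lineage, was not called in CD4 cells (0.39 ± 0.23) and fell in CD8 cells (-2.54 ± 0.53, difference 2.93 ± 0.58, edgeR adjusted p = 0.00913), with CD8 levels of 1.30 ± 0.332 CPM in Raptor KO and 8.45 ± 6.39 CPM in WT (mean ± SD, n = 3 each). Of the 10 differences given here, 6 missed the threshold with 1 library left out, at the highest edgeR adjusted p: Ypel3 (0.254 without Raptor KO stimulated CD4 library 1, also without 7 others of the 12), Chst11 (0.096 without Raptor KO stimulated CD8 library 2, also without Raptor KO stimulated CD4 library 1 or 2 or WT stimulated CD4 library 2), Fnip1 (0.177 without WT stimulated CD8 library 2, also without 10 others of the 12), Cd6 (0.159 without Raptor KO stimulated CD4 library 1, also without 10 others of the 12), Egr2 (0.0786 without Raptor KO stimulated CD8 library 3, also without 5 others of the 12) and Zbtb7b (0.0733 without Raptor KO stimulated CD8 library 3, also without Raptor KO stimulated CD8 library 2 or WT stimulated CD8 library 2). Calls in stimulated CD4 cells that depended on 1 library, with the highest edgeR adjusted p, were Epsti1 (0.104 without Raptor KO library 2, also without Raptor KO library 3 or WT library 1 or 2), Ypel3 (0.282 without Raptor KO library 1, also without Raptor KO library 2 or WT library 1 or 3) and Chst11 (0.0718 without WT library 2).

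**Figure D5:**
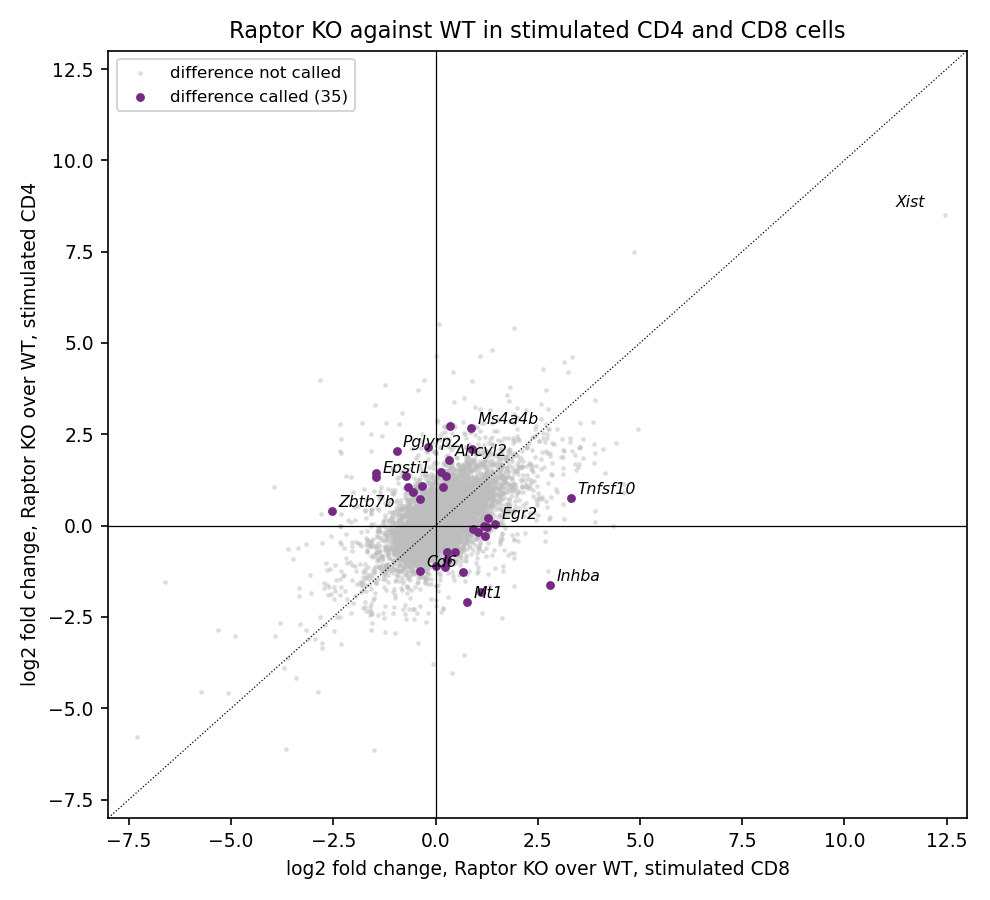
Each point is a tested gene, with its log2 fold change of Raptor KO over WT in stimulated CD8 cells on the x axis and in stimulated CD4 cells on the y axis. Purple points are the 35 genes whose 2 effects differed at an adjusted p under 0.05 in edgeR's quasi-likelihood test, and the dotted line marks equal effects. Ahcyl2 and Ms4a4b lie above the line, and Tnfsf10, Inhba and Mt1 below it. Xist, at the far right, follows the libraries numbered 1.

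In resting CD4 cells the same genotypes differed in 15 genes, 0.143% of those tested. The difference between the stimulated and the resting effect was called for 611 genes, 5.82%, including 342 of the 925 higher and 205 of the 898 lower genes. The count was 375 without stimulated WT library 3, 394 without stimulated Raptor KO library 1 and 24 with totals that include Rn45s. In the ATF4 list the called differences numbered 6, in the cytosolic tRNA synthetases 10, in cholesterol synthesis 8 and in glycolysis 9, all toward lower, in the interferon list 8 toward higher, and in the naive list 10 toward higher and 3 toward lower. Aars averaged 15.8 ± 2.33 CPM in resting Raptor KO cells and 14.3 ± 2.07 CPM in resting WT cells (SD, n = 3 each), and the stimulated effect minus the resting effect was -1.96 ± 0.27, edgeR adjusted p = 1.59e-05. Scd2 had 9.61 ± 3.70 CPM in resting Raptor KO cells and 10.1 ± 6.49 CPM in resting WT cells, with a difference of -2.85 ± 0.53, edgeR adjusted p = 0.0029. Trib3 and Sesn2 gave differences of -2.97 ± 0.64, edgeR adjusted p = 0.0029 and of -2.78 ± 0.75, edgeR adjusted p = 0.0189. Asns had 0 counts in the 3 resting Raptor KO libraries and 2 in the 3 resting WT libraries, so no resting effect can be given for it. Among genes that rose, Gpr183 differed by 2.42 ± 0.25, edgeR adjusted p = 3.29e-08, Zbtb20 by 3.28 ± 0.38, edgeR adjusted p = 2.08e-07, Ahcyl2 by 1.77 ± 0.20, edgeR adjusted p = 1.03e-07 and Malat1 by 1.64 ± 0.29, edgeR adjusted p = 3.68e-04. The genes called in the same direction both at rest and after stimulation numbered 3, named after their values were seen. Rragd had 32.1 ± 14.3 CPM in resting Raptor KO cells and 9.59 ± 1.78 CPM in resting WT cells, a resting log2 fold change of 1.69 ± 0.33 (edgeR adjusted p = 0.00544). Myb, a factor of immature and cycling cells, rose by 1.41 ± 0.33 stimulated and 1.68 ± 0.31 at rest, and Ifit1bl2, of the interferon-induced Ifit family, had 8 counts in Raptor KO and 0 in WT after stimulation, at least 3.72-fold higher with WT at a floor of 3 counts over the group, and rose by 4.49 ± 0.56 at rest. Of the 8 differences given here, 1 missed the threshold with 1 library left out, at the highest edgeR adjusted p: Sesn2 (0.125 without Raptor KO resting CD4 library 3). Leaving out 1 library ended the call in stimulated CD4 cells, with the highest edgeR adjusted p given, of Rragd (0.0568 without Raptor KO library 3) and Ifit1bl2 (0.0613 without WT library 3, also without Raptor KO library 1).

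Markers of other cell types were summed in each library. In these bulk libraries, fewer cells of a type and less RNA per cell cannot be told apart. The 10 CD4 T cell markers summed to 840 to 946 CPM in Raptor KO libraries and to 885 to 989.7 CPM in WT libraries, with none at 0. The 5 CD8 markers summed to 11.0 to 18.9 CPM in Raptor KO and 6.68 to 19.5 CPM in WT libraries, with Gzmk at 0 in both, and the 10 B cell markers to 27.9 to 42.0 CPM in Raptor KO and 23.2 to 33.3 CPM in WT libraries. The 16 myeloid markers were higher in Raptor KO without overlap, at 67.5 to 77.2 CPM, against 32.4 to 46.2 CPM in WT libraries. Ctss gave much of this sum, with means of 34.5 CPM in Raptor KO and 13.7 CPM in WT libraries, while Itgam, Itgax, Adgre1, Fcer1g, S100a8 and S100a9 were at 0 in both groups. The part of myeloid cells in those interferon-stimulated and lysosomal genes that were called higher was not tested. Markers of NK and gamma-delta T cells (5.20 to 21.1 CPM in Raptor KO and 9.80 to 15.1 CPM in WT libraries), of erythroid cells and platelets (0.945 to 12.4 and 0.275 to 2.59 CPM) and of stroma and endothelium (8.03 to 15.9 and 5.50 to 12.3 CPM) overlapped between groups.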

How the data were processed

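Reads were sequenced from total RNA broken by ultrasound and joined to a 3′ adaptor, per the labels' protocols, and aligned with STAR 2.6.0a to GRCm38, per the submitters' processing notes. The authors deposited 1 table of raw read counts per gene for 27 libraries in 9 groups of 3. Not given in the sources used here are the counter, the annotation and whether counting used strand, so paralogs, pseudogenes, overlapping and antisense genes are uncertain. Gene names and types came from GENCODE vM21 by Ensembl ID (26765 of 26802 IDs matched).

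The Rn45s row was left out. Genes were kept by edgeR's filterByExpr by group (minimum count 10, minimum total 15), scaled with TMM and fitted with 1 mean per group over all 27 libraries (edgeR 4.0.16 quasi-likelihood, robust, R 4.3.3). The common biological coefficient of variation was 0.187. p-values were adjusted by Benjamini-Hochberg over all genes tested, with a threshold of 0.05. Interaction contrasts tested differences between effects. limma 3.58.1 and DESeq2 1.42.0 served as alternatives. On counts simulated from these libraries for 9953 genes, the test recovered 14%, 56%, 90% and 100% of genes changed 1.5-, 2-, 4- and 8-fold (50 genes each), and called 8 unchanged genes. Replicates were compared by their counts and none was a copy of another. Intervals and floors (3 counts over a group) cover counting error only.

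The genes and the 44 gene lists were chosen with earlier results of these data known. Named are the first 4 symbols of each list, the list members with the largest called changes, the genes with the largest changes, smallest p-values or highest levels among those called, and genes whose promoter is printed. Promoter windows came from RefSeq tables of GRCm38.p6. Some members of the lists are not reported here.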

Additional observations from a re-analysis of the deposited data

Results flagged for a closer look

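Effects of Raptor loss that differed between conditions, by a test of the difference itself, are given here with their values, and their causes were not tested. The effect in stimulated CD4 cells differed from that in resting CD4 cells for 611 genes. On the log2 scale, stimulated minus resting, the differences were -1.96 for Aars, -2.85 for Scd2, -2.78 for Sesn2 and -2.97 for Trib3, and 1.77 for Ahcyl2, 2.42 for Gpr183, 1.64 for Malat1 and 3.28 for Zbtb20. The effect in stimulated CD4 cells differed from that in stimulated CD8 cells for 35 genes. Stimulated CD4 minus CD8, the differences were 1.48 for Ahcyl2, 2.79 for Epsti1, 1.20 for Fnip1, 1.73 for Trim30a, 2.89 for Ypel3 and 2.93 for Zbtb7b, and -0.86 for Cd6, -1.94 for Chst11, -1.40 for Egr2 and -2.55 for Tnfsf10.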

How the results depend on the processing

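Against 1823 calls between stimulated Raptor KO and WT CD4 cells, the total was 1500 to 2062 with median-ratio size factors, other filters, DESeq2, limma-voom, the compared groups alone, the replicate block or protein-coding scaling. Of the 925 higher and 898 lower genes, DESeq2 called 654 and 828 and the fit with no filter 569 and 853. The total was 684 with totals that include Rn45s and 242 at a minimum fold change of 1.5, and 1138 to 1714 without 1 library. Higher genes, 925, numbered 67 and 142 under those settings and 566 to 798 without 1 library. Lower genes, 898, numbered 100 at the minimum fold change and 570 to 916 without 1 library. Without both stimulated CD4 libraries numbered 1, chosen after seeing the data, 1123 were called, 517 higher and 606 lower, which shared 467 and 573 genes with the calls of the full set. The difference from the resting effect, 611 genes, gave 24 with Rn45s totals, 80 at the minimum fold change and 375 to 664 without 1 library. The difference from the CD8 effect, 35 genes, gave 75 with no filter, 18 with the compared groups alone, 66 with the replicate block, 2 with Rn45s totals, 3 at the minimum fold change and 17 to 45 without 1 library. The minimum fold change tests a stricter hypothesis, and leaving out libraries reduces the samples. The causes of the other shifts were not tested. With the replicate block 1102 higher and 960 lower genes were called, and 785 differences from resting. Deviations of same-numbered Raptor KO and WT stimulated CD4 libraries correlated at r = 0.117, 0.040 and 0.437 for numbers 1, 2 and 3, and the titles of same-numbered stimulated CD4 libraries share a code whose meaning is not stated. With the block the calls of Bcl2 (edgeR adjusted p = 0.0592) and S1pr1 (0.058) and of the CD4 minus CD8 difference of Fnip1 (0.0744) were lost, and Xbp1 was called (0.0279). Log2 fold changes of Ccr7, Rpl3 and Rpsa turned to -0.0402, -0.00964 and -0.0525 with Rn45s totals. Of 261 results for single genes and contrasts, 111 kept direction and side of the threshold under every alternative. Motif shares upstream of the start alone were 31.6% of ATF4 genes, 25.0% of cytosolic tRNA synthetases and 2.34% of tested genes for the CARE. The 6 libraries held 1582214 to 2280104 counts each without Rn45s. In the simulation, with gene levels averaged over all 27 libraries, 14% of 50 genes changed 1.5-fold were recovered. Many changes of that size can thus be missed, though some smaller ones were called.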

Other observations

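For the remaining gene lists, calls in stimulated Raptor KO against WT CD4 cells stand beside 17.4% called over all genes tested. The shares were 9.26% for replication-dependent histones and 9.09% for the MYC and MAX network. They were 16.7% for G1 cyclins, CDKs and CDK inhibitors and 20.0% for iron uptake and storage. Of 54 replication-dependent histone genes, whose mRNAs carry no poly(A) tail and are made in S phase, 1 rose and 4 fell (median log2 fold change 0.09). Close copies within that family share reads, and with 1 library left out 1 to 3 fell. Of 11 genes of the MYC and MAX network, Mxd1 alone rose and none fell (median 0.23). Of 18 G1 cyclins, CDKs and CDK inhibitors 1 rose and 2 fell (median 0.11), and of 10 genes of iron uptake and storage 2 fell (median -0.28). The medians of the histone, MYC and G1 lists lay below 0 with library totals that include Rn45s.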
